A study of Mus musculus with 23 samples.

Results

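CELF and ELAV-like RNA-binding proteins were followed here through 10 genes, Celf1 to Celf6 and Elavl1 to Elavl4, taken by symbol as the complete set of both families among the 45706 gene IDs of the read count table. All 10 had enough reads to be tested, among 18823 genes that passed the filter on low counts. The study sequenced poly(A) RNA from neurons of the mouse hippocampus in 23 libraries. It set WT mice beside a conditional knockout (cKO) of Slm2, whose gene symbol is Khdrbs3 and whose product is an RNA-binding splicing regulator. The populations were CamK and Grik, both labelled as excitatory pyramidal cells, and SST, labelled as somatostatin-positive interneurons, and the design text names CA1, CA3 and SST+ populations. The groups were SLM2 WT and SLM2 cKO in CamK (4 and 3 libraries), Grik (4 and 4) and SST (4 and 4). The isolation of the cells, the Cre lines, the deleted exons and the ages and sexes of the mice are not given in the sources used here. Nothing said whether each library was a separate animal, so the p-values measure the spread between these libraries.

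CELF proteins carry RNA recognition motifs and bind GU-rich RNA, in the nucleus as regulators of alternative splicing and in the cytoplasm as regulators of mRNA decay and translation. ELAV-like proteins, also called Hu proteins, bind AU-rich and U-rich stretches, mostly in introns and 3′ untranslated regions, and are known for stabilising mRNAs and for shaping neuronal splicing. Celf1, Celf2 and Elavl1 are expressed in many tissues, whereas Celf3 to Celf6 and Elavl2 to Elavl4 are known chiefly from neurons.

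The members are close relatives, so the coding sequences were compared first, because reads from a stretch that relatives share cannot be told apart. In the GENCODE M21 annotation of GRCm38, 0 of the 50-base words in the coding sequence of any member occurred in the coding sequence of another member of the 10. The longest identical run was 31 bases, between Celf5 and Celf6, followed among the ELAV-like genes by 29 bases between Elavl3 and Elavl4 and 23 bases between Elavl2 and Elavl4. Untranslated parts of the exons and genes outside the 10 were not compared, so the check covers the coding part of the counted exons only. The read length was not given in the sources used here. These 3 pairs are shown because their members differed in opposite directions or to different degrees between populations. Each is written 5′ to 3′ on the coding strand with 15 bases on either side, and the capitals mark the shared run.
Celf5, chr10:81482475-81482535, minus strand, exon 1 of 12: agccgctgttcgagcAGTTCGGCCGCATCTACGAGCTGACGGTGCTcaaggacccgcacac
Celf6, chr9:59578565-59578625, plus strand, exon 1 of 13: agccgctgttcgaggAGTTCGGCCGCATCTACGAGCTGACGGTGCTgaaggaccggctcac
Elavl3, chr9:22018585-22018643, minus strand, exon 7 of 7: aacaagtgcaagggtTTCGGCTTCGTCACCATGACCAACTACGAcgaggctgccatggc
Elavl4, chr4:110206414-110206472, minus strand, exon 7 of 7: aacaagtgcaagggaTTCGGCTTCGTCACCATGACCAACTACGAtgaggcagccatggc
Elavl2, chr4:91264039-91264091, minus strand, exon 5 of 8: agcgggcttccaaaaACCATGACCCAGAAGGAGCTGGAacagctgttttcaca
Elavl4, chr4:110213175-110213227, minus strand, exon 4 of 7: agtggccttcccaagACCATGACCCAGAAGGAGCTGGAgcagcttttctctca

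Elavl2 and Celf5 had the widest range of WT levels in their families, and Celf6 differed in the opposite direction to Celf5. Their promoters are shown for that reason, from 250 bases before to 50 bases after the most upstream RefSeq start (GRCm38.p6). Capitals mark the GC box GGGCGG on either strand. Celf6 held 7 matches, which overlap in places, Celf5 held 3 and Elavl2 held 0. Of 32851 RefSeq promoters of this length, 35.66% held at least 1 match.
Elavl2, chr4:91399935-91400234, minus strand: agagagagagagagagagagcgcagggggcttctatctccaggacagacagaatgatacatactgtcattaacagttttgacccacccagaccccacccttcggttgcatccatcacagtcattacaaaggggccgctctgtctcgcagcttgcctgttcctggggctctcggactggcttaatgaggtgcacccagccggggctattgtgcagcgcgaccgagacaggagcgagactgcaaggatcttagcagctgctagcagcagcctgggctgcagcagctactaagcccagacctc
Celf5, chr10:81482650-81482949, minus strand: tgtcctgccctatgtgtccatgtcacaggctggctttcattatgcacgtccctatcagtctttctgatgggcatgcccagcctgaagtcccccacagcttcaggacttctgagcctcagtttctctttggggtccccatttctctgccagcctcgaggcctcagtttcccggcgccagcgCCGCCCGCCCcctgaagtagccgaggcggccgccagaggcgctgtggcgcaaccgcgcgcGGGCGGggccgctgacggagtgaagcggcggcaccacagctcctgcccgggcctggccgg
Celf6, chr9:59578087-59578386, plus strand: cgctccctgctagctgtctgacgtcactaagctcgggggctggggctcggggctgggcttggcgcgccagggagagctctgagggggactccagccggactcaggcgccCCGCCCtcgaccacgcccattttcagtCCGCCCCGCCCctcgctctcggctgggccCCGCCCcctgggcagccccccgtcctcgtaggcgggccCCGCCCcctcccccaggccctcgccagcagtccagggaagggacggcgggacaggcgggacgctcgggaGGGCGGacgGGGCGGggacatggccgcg

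The Celf6 window also held 1 match to TGACGTCA, the cAMP response element, which reads the same on both strands, as did 1.79% of all promoters, and the windows of Celf5 and Elavl2 held none. The E-box CANNTG was in the Elavl2 window once, and in 72.31% of promoters at least once. TATAAA (13.62% of promoters), CCAAT (37.41%) and CCGGAAG (8.858%), each searched on both strands, had no match in these 3 windows. Among the members, 9 of 10 had a promoter in the RefSeq table. The GC content was 76.7% for Celf6, 66.3% for Celf5 and 57.0% for Elavl2. A match describes the letters and not a bound site.

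Each library held 87612006 to 112993538 reads assigned to genes. Values are counts per 1000000 reads (CPM) after TMM scaling, with replicates listed in the order of their label numbers, and CPM does not correct for gene length. The markers of inhibitory, CA1 and CA3 neurons were each highest in the population of that label. The summed level of Gad1, Gad2, Slc32a1 and Lhx6, markers of inhibitory neurons, was 5017 to 5637 CPM in SST WT against 41.5 to 136 in CamK WT and 61.0 to 82.5 in Grik WT. Sst itself was 159 to 1720 CPM among the SST WT libraries, a wide range, and at most 10.6 in any WT library of CamK or Grik. Of 4 markers of other interneuron classes, Pvalb had a mean of 139.9 CPM in SST WT against 1.05 in both CamK WT and Grik WT. The others were not highest in SST, with Vip at 0.348, 10.5 and 0.610, Cnr1 at 65.7, 135 and 95.1 and Lamp5 at 41.7, 32.7 and 9.18 CPM in CamK, Grik and SST WT. The CA1 markers Wfs1, Fibcd1, Pou3f1 and Mpped1 summed to 1118 to 1531 CPM in CamK WT against 62.0 to 95.7 in Grik WT and 392 to 406 in SST WT. Most of the SST sum was Mpped1, at a mean of 334 CPM, while Wfs1, Fibcd1 and Pou3f1 were at 24.4, 36.5 and 4.48 there and at 24.7, 25.2 and 3.95 in Grik WT. The CA3 markers Grik4, Bok, Cpne4 and Nectin3 summed to 886 to 951 CPM in Grik WT against 166 to 199 in CamK WT and 90.9 to 122 in SST WT. The 4 excitatory markers Slc17a7, Camk2a, Neurod6 and Neurod2 were not at 0 in SST, at 763 to 891 CPM against 5392 to 5903 in CamK WT. Camk2a made up most of the SST level, at a mean of 731 CPM, while Slc17a7, Neurod6 and Neurod2 were at 83.3, 23.6 and 16.3. The source of these reads was not tested. The summed level of 20 astrocyte, oligodendrocyte, microglia and endothelium markers was 156 to 247 CPM in the WT CamK libraries, 752 to 1005 in those of Grik and 377 to 817 in those of SST, and its part in the differences between populations was not tested.

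By edgeR the targeted gene fell past the threshold in SST and in neither excitatory population. Khdrbs3 was 278 ± 25.1 CPM (SD, n = 3) in the CamK libraries labelled cKO against 373 ± 27.0 (n = 4) in WT, and 93.8 ± 10.5 against 130.2 ± 8.31 (n = 4 each) in SST. The log2 differences were -0.42 in CamK and -0.47 in SST (adjusted p 0.114 and 0.0309 by edgeR's quasi-likelihood test with Benjamini-Hochberg adjustment over 18823 genes). In Grik it was 414 ± 18.0 in the libraries labelled cKO and 336 ± 8.61 in WT (n = 4 each), which goes against the label (log2 difference 0.30, edgeR adjusted p 0.499). The genotype differences were themselves called apart, at -0.73 for CamK minus Grik and 0.78 for Grik minus SST (edgeR adjusted p 0.0154 and 0.00135). CamK minus SST, at 0.05, was not called (0.927). For CamK minus Grik, 0 genes passed with the replicate number as a block or without CamK cKO replicate 6 or Grik cKO replicate 2. Whether reads fall in the deleted exons was not analysed here, so the libraries are called by their labels below. The SST call held in 9 of 16 alternatives. It was lost by limma-voom (adjusted p 0.0614), with SST libraries alone (0.954) and without SST cKO replicate 3, 4 or 5 or SST WT replicate 1 or 5 (0.0722 to 0.155). By limma-voom Khdrbs3 was called lower in CamK and higher in Grik (adjusted p 0.0207 and 0.0158), and by DESeq2 lower in CamK (0.00293).

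**Figure D1:**
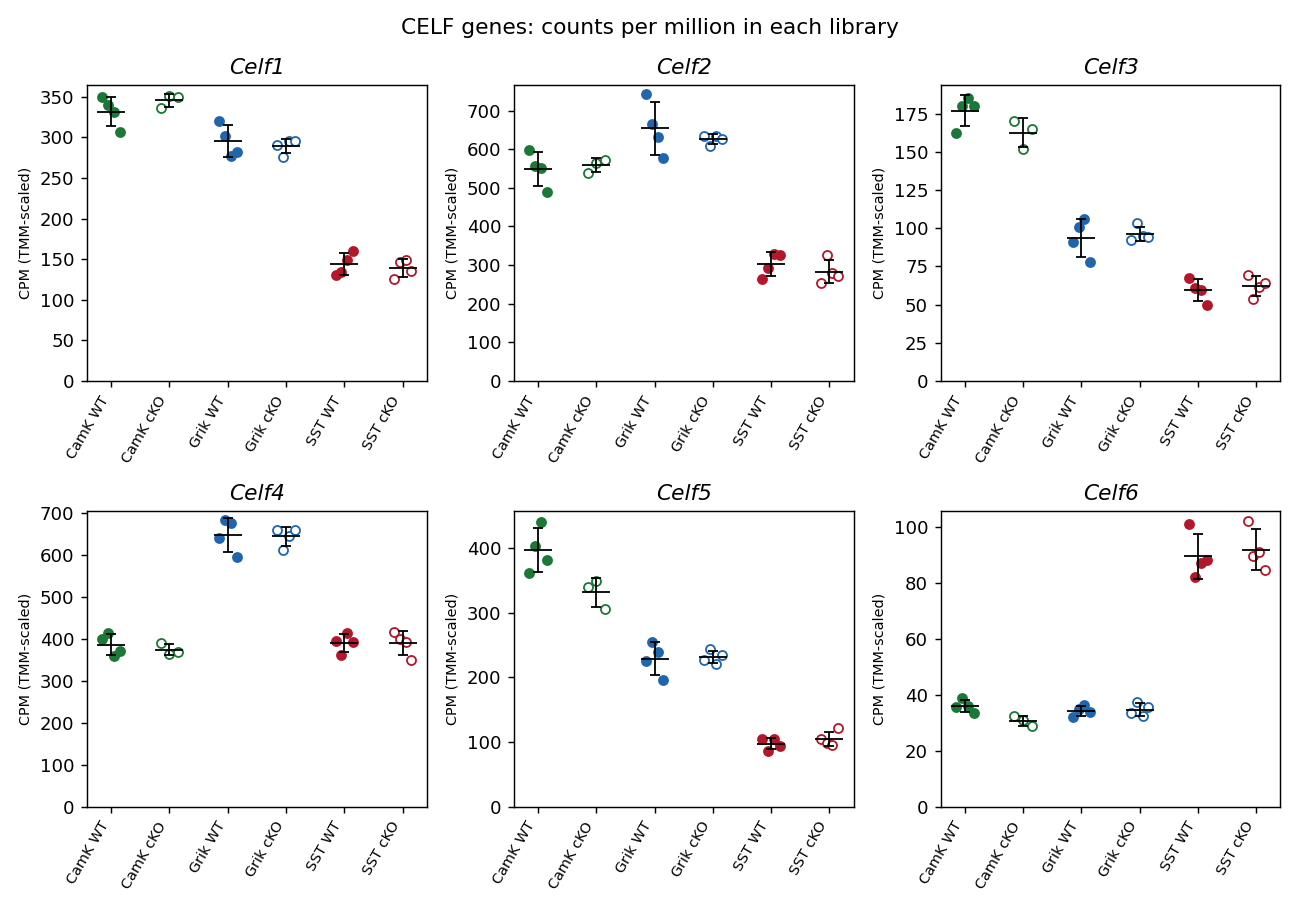
Level of each CELF gene in CPM (TMM-scaled, linear axes from 0) in the 23 libraries, by population and genotype; filled circles are WT, open circles are libraries labelled cKO, and bars are the group mean and SD. Celf5 stepped down from CamK to Grik to SST, Celf6 was high in SST, and Celf4 was highest in Grik.

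The 2 broadly expressed CELF genes were lowest in SST. Celf1 (chr2:90940382-91019497, plus strand), which represses or promotes exons and recruits deadenylation to GU-rich mRNAs, was 349.8, 339.5, 331 and 307 CPM in the 4 WT CamK libraries, 320.2, 302, 277 and 282 in those of Grik and 131, 134, 149 and 160.2 in those of SST. No SST library reached the excitatory range, while CamK and Grik overlapped. In bulk libraries, fewer cells of a type and less RNA per cell cannot be told apart. By edgeR's quasi-likelihood test with Benjamini-Hochberg adjustment, Celf1 was 2.31-fold higher in CamK than in SST (log2 fold change 1.21, SE 0.07, adjusted p 1.83e-13) and 2.06-fold higher in Grik than in SST (log2 fold change 1.04, SE 0.07, adjusted p 2.74e-12). Between CamK and Grik the log2 difference of 0.17 had an adjusted p of 0.0526 and a 95% interval of 0.02 to 0.32.

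Celf2 (chr2:6539694-7509563, minus strand), a splicing regulator of brain, heart and T cells, was 597, 557, 552 and 490.1 CPM in the WT CamK libraries, 742, 665, 632 and 576 in those of Grik and 263, 293, 328 and 327 in those of SST. The SST libraries again lay below all others, and CamK and Grik overlapped. Celf2 was 1.81-fold higher in CamK and 2.16-fold higher in Grik than in SST (edgeR adjusted p 3.08e-09 and 2.75e-11). The lower level in CamK than in Grik, at a log2 difference of -0.25 (SE 0.08), passed the edgeR threshold with an adjusted p of 0.0171. Without CamK WT replicate 5 or Grik WT replicate 3 the adjusted p of this difference was 0.0737 or 0.101. A lincRNA on the other strand, Gm26565, shares 1961 exon bases with Celf2, and the strand setting of the counting was not given.

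Among the neuronal CELF genes, Celf5 and Celf3 fell in steps from CamK over Grik to SST. Celf5 (chr10:81459227-81482709, minus strand), a brain member of the family whose targets are little described, was 362, 403, 439.8 and 382 CPM in the WT CamK libraries, 225, 255, 239 and 196 in those of Grik and 105, 86.5, 105 and 93.5 in those of SST. The 3 ranges did not touch. Celf5 was 1.73-fold higher in CamK than in Grik (log2 fold change 0.79, SE 0.09, adjusted p 5.96e-08, edgeR) and 4.07-fold higher than in SST (log2 fold change 2.02, SE 0.09, adjusted p 1.13e-15). Grik exceeded SST by 1.23 on the log2 scale (SE 0.09, edgeR adjusted p 7.58e-12). The antisense gene Gm16105 shares 543 exon bases with Celf5.

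Celf3 (chr3:94478295-94492198, plus strand), a splicing regulator largely restricted to the nervous system, had the same order. It was 162, 180.3, 185 and 180.2 CPM in the WT CamK libraries, 91.4, 101, 106 and 77.6 in those of Grik and 67.2, 60.6, 59.6 and 49.7 in those of SST. Every library of 1 population lay apart from those of the next. The step from CamK to Grik was 1.88-fold (log2 fold change 0.91, SE 0.09, adjusted p 2.09e-08, edgeR) and the step from Grik to SST 1.58-fold (log2 fold change 0.66, SE 0.09, adjusted p 1.19e-06). The protein-coding Riiad1 shares 74 exon bases on the other strand.

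Celf4 and Celf6 followed other orders. Celf4 (chromosome 18, minus strand), a regulator of synaptic mRNAs whose loss causes seizures in mice, was 399.9, 413, 359 and 370.4 CPM in the WT CamK libraries, 638, 681, 675 and 593 in those of Grik and 394, 361, 413 and 393 in those of SST. Grik lay above both other populations with no overlap, while the CamK and SST ranges overlapped. Celf4 was 1.68-fold lower in CamK than in Grik (log2 fold change -0.75, SE 0.06, adjusted p 1.17e-09, edgeR) and 1.66-fold higher in Grik than in SST (log2 fold change 0.73, SE 0.06, adjusted p 4.75e-10). The CamK and SST difference was -0.02, with a 95% interval of -0.15 to 0.12 and an edgeR adjusted p of 0.835.

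Celf6 (chr9:59577917-59607292, plus strand), linked in mice to social communication, was the CELF gene with its highest level in SST. It was 35.5, 38.8, 35.9 and 33.6 CPM in the WT CamK libraries, 32.1, 34.9, 36.3 and 33.7 in those of Grik and 101, 82.1, 87.1 and 88.2 in those of SST. Both excitatory populations were low and overlapped, and no SST library came near them. The level in SST was 2.49-fold above CamK (CamK against SST -1.32, SE 0.08, edgeR adjusted p 1.31e-13) and 2.62-fold above Grik (-1.39, SE 0.08, adjusted p 4.26e-14). CamK and Grik differed by 0.07, with a 95% interval of -0.09 to 0.23.

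**Figure D2:**
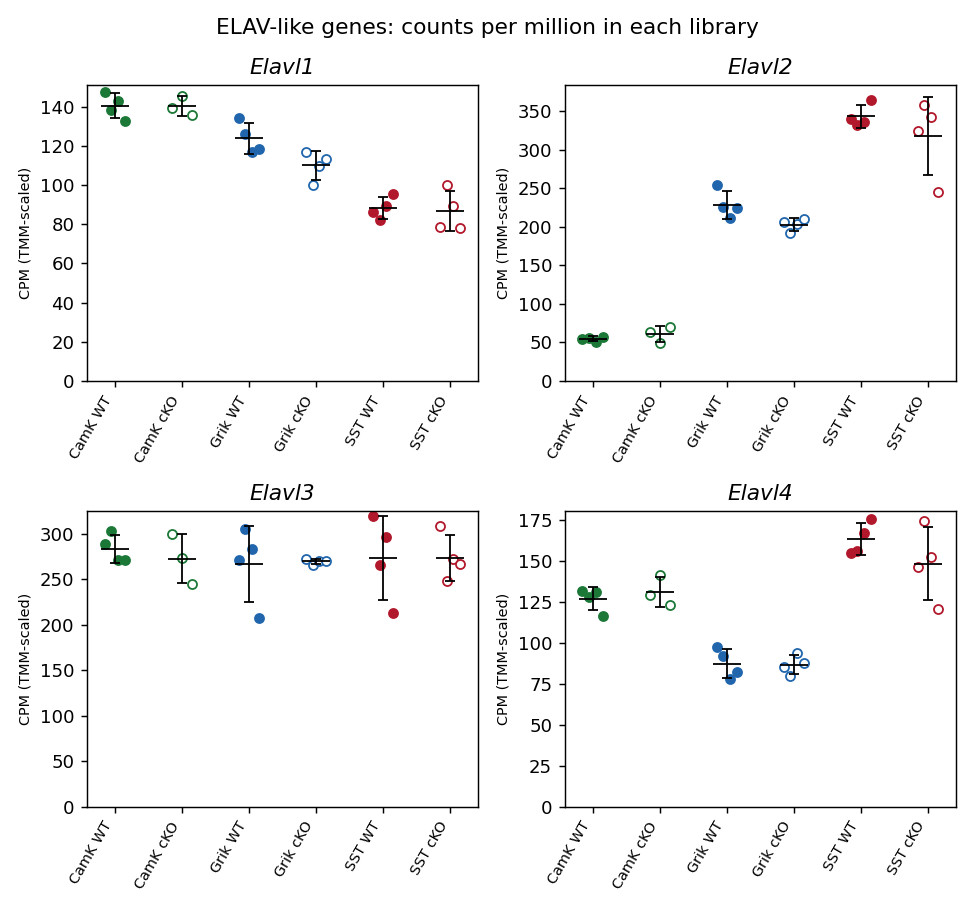
Level of each ELAV-like gene in CPM (TMM-scaled, linear axes from 0) in the 23 libraries; filled circles are WT, open circles are libraries labelled cKO, and bars are the group mean and SD. Elavl2 was low in CamK and high in Grik and SST, and the 6 groups of Elavl3 overlapped.

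The ubiquitous member of the ELAV-like genes was highest in the excitatory cells. Elavl1 (chr8:4285382-4325413, minus strand), whose product HuR stabilises AU-rich mRNAs in most tissues, was 148, 138, 143 and 133 CPM in the WT CamK libraries, 134, 126, 117 and 118 in those of Grik and 86.5, 82.1, 89.1 and 95.5 in those of SST. SST lay below all excitatory libraries, and CamK and Grik overlapped. Elavl1 was 1.59-fold higher in CamK than in SST (log2 fold change 0.67, SE 0.07, adjusted p 2.98e-08, edgeR) and 1.40-fold higher in Grik than in SST (log2 fold change 0.49, SE 0.07, adjusted p 4.20e-06). The CamK and Grik difference of 0.18 did not pass the threshold (edgeR adjusted p 0.0536). Ccl25 on the other strand shares 204 exon bases with Elavl1.

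Elavl2 differed more between populations than any other of the 10 genes, with WT group means of log2 CPM spanning 2.65. Elavl2 (chr4:91250763-91400785, minus strand) encodes HuB, a neuronal Hu protein that is also made in germ cells. It was 55.0, 56.1, 51.0 and 57.6 CPM in the WT CamK libraries, 254, 225, 211 and 224 in those of Grik and 341, 333, 336 and 365 in those of SST. The CamK libraries all lay below every Grik and SST library, and the 3 ranges were separate. Elavl2 was 4.17-fold lower in CamK than in Grik (log2 fold change -2.06, SE 0.10, adjusted p 6.16e-14, edgeR) and 6.26-fold lower than in SST (log2 fold change -2.65, SE 0.10, adjusted p 1.48e-16). Grik lay below SST (log2 fold change -0.59, SE 0.10, adjusted p 1.40e-05).

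Elavl3 and Elavl4, the other neuronal Hu genes, showed smaller differences. Elavl3 (chr9:22015005-22052023, minus strand) encodes HuC, a marker of postmitotic neurons, and was 289, 303, 271 and 271 CPM in the WT CamK libraries, 272, 305, 284 and 208 in those of Grik and 319.5, 266, 297 and 213 in those of SST. All 3 ranges overlapped. The largest of the 3 WT differences was 0.09 for CamK against Grik, with a 95% interval of -0.14 to 0.31 and an edgeR adjusted p of 0.555. The predicted gene Gm49318 shares 256 exon bases with Elavl3 on the same strand.

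Elavl4 (chr4:110203722-110351909, minus strand) encodes HuD, which binds the mRNA of the growth-associated gene Gap43. It was 132, 128, 131 and 117 CPM in the WT CamK libraries, 97.3, 92.1, 78.2 and 82.0 in those of Grik and 155, 156, 167 and 176 in those of SST. Grik was lowest and SST highest, without overlap. The difference was 0.54 (SE 0.09, edgeR adjusted p 2.63e-05) for CamK against Grik, -0.36 (SE 0.09, 0.00104) for CamK against SST and -0.90 (SE 0.09, 3.70e-09) for Grik against SST.

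The levels in the libraries labelled cKO kept to the same scale. Celf1 was 346 ± 7.77 CPM in CamK, 289 ± 9.18 in Grik and 139 ± 10.7 in SST (SD, n = 3, 4 and 4, as for all members that follow). Celf2 was 559 ± 17.5, 626 ± 12.6 and 283 ± 30.1 CPM. Both were lowest in SST, as in WT. Celf3 was 163 ± 9.43, 96.3 ± 4.79 and 62.4 ± 6.40 CPM, and Celf5 was 331 ± 22.4, 231 ± 9.85 and 105 ± 11.1, both descending from CamK to SST. Celf4 was 374 ± 13.1, 643 ± 22.2 and 389 ± 27.9 CPM, highest in Grik, and Celf6 was 30.7 ± 1.83, 34.7 ± 2.18 and 91.9 ± 7.35, highest in SST. Elavl1 was 140.4 ± 4.94, 110.2 ± 7.27 and 86.7 ± 10.4 CPM. Elavl2 was 61.2 ± 10.4, 203 ± 7.93 and 318 ± 50.4 CPM, so CamK was again far below the others. Elavl3 was 273 ± 27.1, 269.7 ± 3.08 and 274 ± 25.3 CPM, and Elavl4 was 131 ± 9.26, 86.7 ± 5.66 and 149 ± 22.1.

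**Figure D3:**
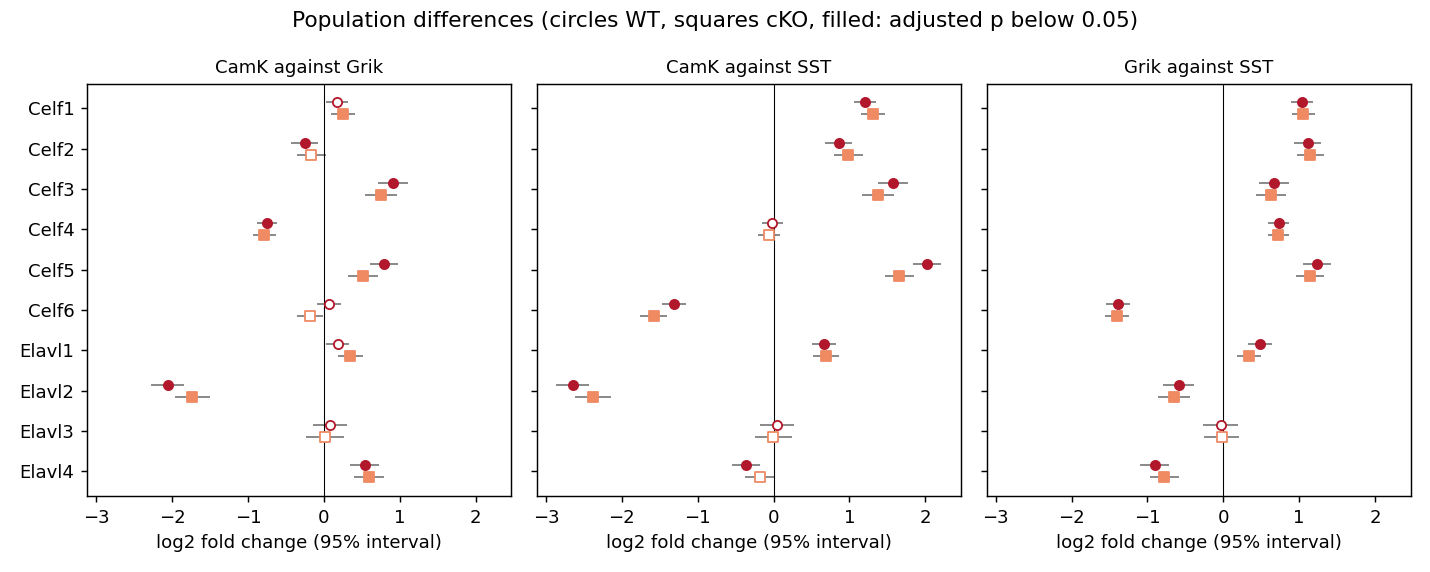
Log2 fold change with its 95% interval for each gene in the 3 population comparisons; circles are WT libraries, squares are libraries labelled cKO, and filled symbols have an edgeR adjusted p below 0.05. Elavl2 lies farthest to the left in both CamK comparisons, and Celf5 is on the right in all 3.

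In WT, 6 of the 10 members passed the edgeR threshold for CamK against Grik, 3 higher and 3 lower, where 42% of all genes tested passed, 20.9% higher and 21.1% lower. For CamK against SST 8 passed, 5 higher and 3 lower, against 60.1% of all genes, 29.5% higher and 30.5% lower. For Grik against SST 9 passed, 6 higher and 3 lower, against 57.3% of all genes, 28.1% higher and 29.2% lower. The populations differed in a large part of the transcriptome, so the members' counts are read against these shares. The median log2 fold change of the members was 0.13, 0.36 and 0.58 in the 3 comparisons, beside 0.01, -0.02 and -0.03 over all genes tested. These comparisons share WT libraries pairwise, so they are given side by side only.

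The libraries labelled cKO, which share no library with WT, gave a like picture. There 7 members passed for CamK against Grik, 5 higher and 2 lower (35.7% of all genes, 17.4% higher and 18.3% lower). For CamK against SST 7 passed, 5 higher and 2 lower (56.4%, 26.9% and 29.4%), and for Grik against SST 9 passed, 6 higher and 3 lower (57.9%, 27.9% and 30%). Members called in the same direction in both genotypes numbered 5 for CamK against Grik, which is 83.3% of the WT calls and 71.4% of the calls in cKO; over all genes these shares were 69.1 and 81.5%. For CamK against SST the number was 7 (87.5 and 100% of the calls, against 81.5 and 86.8% over all genes). For Grik against SST it was 9, all of the calls in each genotype, against 88.3 and 87.3% over all genes. No member was called in opposite directions. In these libraries Elavl2 was again lowest in CamK, with log2 fold changes of -1.73 against Grik and -2.38 against SST (SE 0.11 and 0.11, edgeR adjusted p 8.83e-12 and 1.06e-14). Celf1, at 0.26 for CamK against Grik, and Elavl1, at 0.35, passed there (edgeR adjusted p 0.00885 and 0.00117) and not in WT. With the replicate number as a block, the call of Celf1 was lost (adjusted p 0.0800). The difference between the genotypes in these contrasts was not called (edgeR adjusted p 0.911 and 0.814). Celf2, called in WT for CamK against Grik, was -0.16 in cKO and did not pass (edgeR adjusted p 0.172). By limma-voom it passed there (adjusted p 0.0355). Its difference between the genotypes was not called (edgeR adjusted p 0.924). Elavl4, called in WT for CamK against SST, was -0.18 in cKO (edgeR adjusted p 0.120), and without SST cKO replicate 7 it was -0.27 with an adjusted p of 0.0133. The difference of Elavl4 between the genotypes in this contrast was not called (0.19, edgeR adjusted p 0.713).

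**Figure D4:**
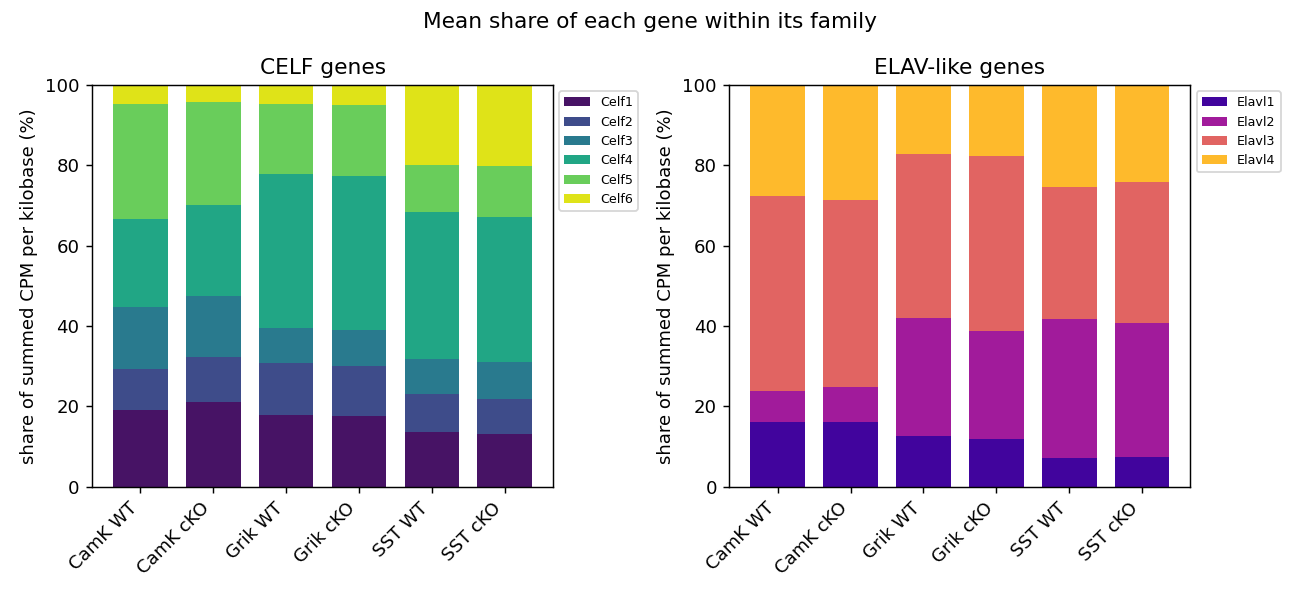
Mean share of each gene in the summed level of its family, in percent of CPM per kilobase of exon, for the 6 groups; each stacked bar sums to 100. Celf5 gives way to Celf4 from CamK to Grik and SST, Celf6 widens in SST, and Elavl2 widens in Grik and SST.

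Because the genes differ in length, levels were compared between genes per kilobase of exon. The summed level of the 6 CELF genes was 207 ± 7.33 CPM per kilobase in the WT CamK libraries, 197 ± 13.0 in those of Grik and 124 ± 5.83 in those of SST (SD, n = 4 each). That of the 4 ELAV-like genes was 84.9 ± 3.32, 94.5 ± 8.19 and 120.0 ± 4.51. The excitatory populations carried more CELF mRNA and the SST libraries more ELAV-like mRNA on this scale.

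Within the CELF family, the share of Celf5 was 28.7 ± 1.91% in the WT CamK libraries, 17.4 ± 0.882% in those of Grik and 11.7 ± 0.609% in those of SST (SD, n = 4 each). Celf4 took 21.7 ± 1.38%, 38.4 ± 0.892% and 36.5 ± 0.539% in the same order, so it was the leading CELF gene in Grik and SST. The share of Celf6 was 4.79 ± 0.153% in the WT CamK libraries, 4.82 ± 0.356% in those of Grik and 19.9 ± 1.38% in those of SST. Celf1 made up 19.0, 17.8 and 13.7%. Celf2 stood at 10.2, 12.9 and 9.42%, and Celf3 at 15.6, 8.71 and 8.72%. In the ELAV-like family Elavl2 took 7.79 ± 0.543% in WT CamK libraries, 29.2 ± 2.46% in those of Grik and 34.5 ± 2.24% in those of SST. Elavl3 took 48.5 ± 1.30%, 40.9 ± 4.10% and 33.0 ± 4.63%. Elavl4 held 27.8, 17.2 and 25.3%, and the rest was Elavl1, at 12.7% in Grik WT and 7.11% in SST WT. Shares are given as a description with no test, since a rise of 1 gene lowers the others.

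The order of genes by level depends on which length divides the counts. With the union of all exons, Celf5 led the 10 genes in CamK WT at 59.5 CPM per kilobase, ahead of Celf4 at 44.9, and Elavl2 was last at 6.61. With the longest transcript Celf4 led in CamK WT, and the share of Celf2, whose exon union is 25884 bases against 8856 for its longest transcript, went from 10.2 to 17.4% in CamK WT, from 12.9 to 20.2% in Grik WT and from 9.42 to 15.6% in SST WT. The share of Celf1 went from 19.0 to 11.9%, from 17.8 to 10.3% and from 13.7 to 8.36% in the same groups. That of Celf6 went from 4.79 to 3.27%, from 4.82 to 3.05% and from 19.9 to 13.3%, still highest in SST. In Grik WT and SST WT Celf4 led by both lengths, at 75.4 and 45.5 CPM per kilobase of exon union. In SST WT Elavl2 was next at 41.3, ahead of Elavl3 at 39.8 by exon union, and at 82.0 against 54.6 by longest transcript. The order by exon union varied among the libraries. Elavl3 lay above Elavl2 in SST WT replicates 1 (46.4 against 41.0) and 3 (43.1 against 40.5). It lay below in replicates 2 (38.6 against 40.0) and 5 (30.9 against 43.9). In SST cKO the mean of Elavl3 was 39.7 against 38.3 for Elavl2. In Grik WT Elavl3 lay above Elavl2 by exon union (38.8 against 27.5) and just below by longest transcript (53.3 against 54.6). In Grik cKO it lay above by both lengths (39.1 against 24.4 and 53.8 against 48.5).

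The labels set libraries labelled cKO against WT in each population. By edgeR's quasi-likelihood test with Benjamini-Hochberg adjustment over 18823 genes, 0 of the 10 members passed in CamK, 0 in Grik and 0 in SST, where 0.0106% of all genes passed in each (2 genes). With an unadjusted p below 0.05 there were 2 members in CamK (7.05% of all genes), 1 in Grik (4.88%) and 0 in SST (5.85%). The CamK count was 0 without cKO replicate 6 and 1 without WT replicate 3 or 4 or with the replicate block. It was 3 without cKO replicate 5 or with a non-neuronal marker covariate. For Grik, leaving out cKO replicate 2 or 3 or WT replicate 3 or 4 gave 0. Limma-voom and a fit of Grik libraries alone each gave 2. Dropping SST cKO replicate 4 raised the SST count to 2. At the adjusted threshold DESeq2 and limma-voom also called 0 members in each population. Of the 18823 genes, DESeq2 called 16, 14 and 11 and limma-voom 6, 37 and 0 in CamK, Grik and SST. The median log2 fold change of the members was -0.02 in CamK, -0.01 in Grik and -0.01 in SST, against -0.00142, 0.00353 and 0.0225 over all genes.

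In CamK the members with the lowest p were Celf6 and Celf5. Celf5 was 339.6, 348 and 306 CPM in the 3 libraries labelled cKO and 362, 403, 439.8 and 382 in WT. All cKO values lay below all WT values. The log2 fold change was -0.26 (SE 0.09, 95% interval -0.46 to -0.06), with an edgeR p of 0.0104 that became 0.629 after adjustment. Celf6 was 32.4, 30.9 and 28.8 CPM in cKO against 35.5, 38.8, 35.9 and 33.6 in WT, again without overlap. The difference was -0.23 on the log2 scale (SE 0.08, edgeR adjusted p 0.619). Groups that do not overlap were found for 2 members in CamK, where 6.75% of all genes had them.

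In Grik the groups did not overlap for Elavl1 and Elavl2, against 4.59% of all genes. Elavl1 was 117, 100.2, 109.8 and 114 CPM in the libraries labelled cKO and 134, 126, 117 and 118 in WT, a log2 difference of -0.17 (SE 0.07, edgeR p 0.0320, adjusted 0.992). Elavl2 was 206, 192, 204 and 211 CPM against 254, 225, 211 and 224, a log2 difference of -0.17 (SE 0.10, edgeR p 0.0911, adjusted 0.992). In both genes the highest cKO library lay just under the lowest WT library. In SST the groups overlapped for every member, beside 2.7% of all genes without overlap, and the largest log2 fold change was -0.14 for Elavl4 (95% interval -0.33 to 0.05).

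**Figure D5:**
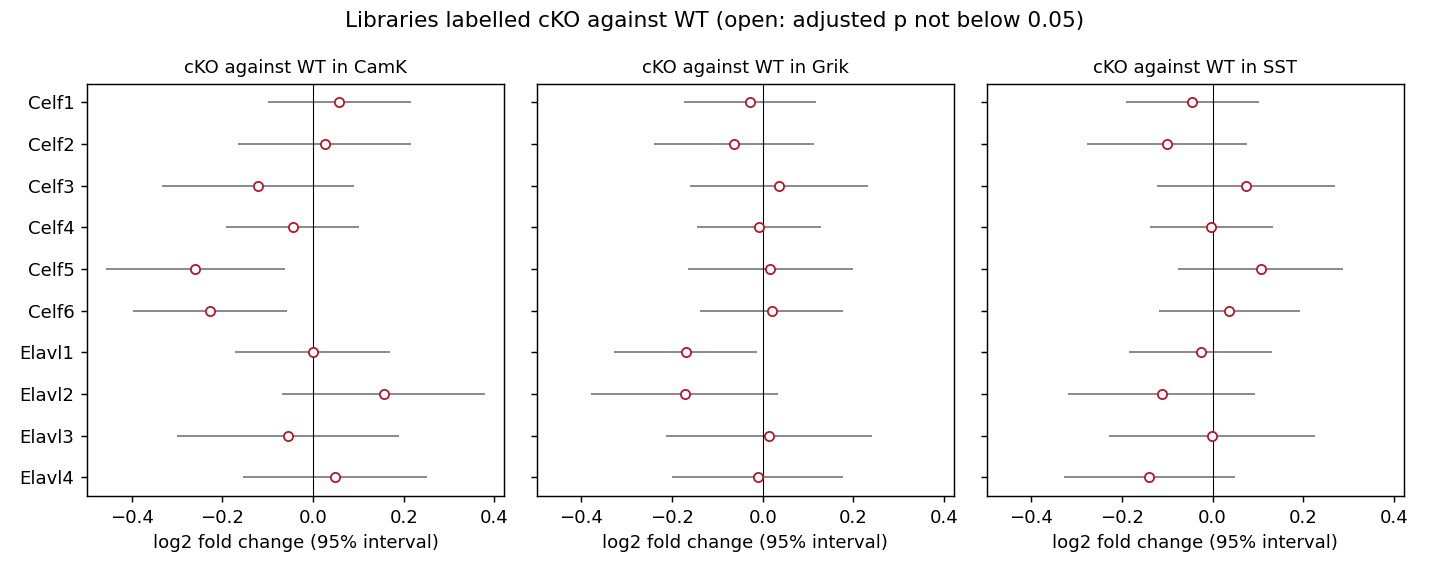
Log2 fold change of each gene in libraries labelled cKO against WT, with its 95% interval, in CamK, Grik and SST; open symbols have an edgeR adjusted p not below 0.05. Every symbol is open, and in CamK the intervals of Celf5 and Celf6 lie left of 0.

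Over the 30 genotype values of the members, the 95% intervals reached no lower than -0.46 and no higher than 0.38, so changes beyond these sizes lay outside them. Single libraries moved some values. In SST, cKO replicate 7 had the lowest Elavl2 of its group at 245 CPM, beside 325, 359 and 343 in the others. It had the lowest Elavl4 as well, at 121 CPM. The same library had the lowest interneuron marker sum of the 8 SST libraries, at 3999 CPM, and the highest non-neuronal sum, at 1223, and the part of these in its Elavl2 level was not tested. In CamK, the cKO replicates 4, 5 and 6 had Elavl2 at 63.9, 49.6 and 70.0 CPM, with CA3 marker sums of 209, 114 and 244 and CA1 marker sums of 1181, 1668 and 1006. The dentate granule markers Prox1, C1ql2, Dsp and Calb1 summed to 380.1, 274 and 483 CPM in these libraries. The CA3 and dentate sums and Elavl2 had the same order over the 3 libraries, and the part of either in the Elavl2 level was not tested. The 20 non-neuronal markers had positive log2 fold changes for 19, 18 and 16 genes in CamK, Grik and SST. Their medians were 0.60, 0.20 and 0.29, and 0 were called, beside 0.0106% of all genes in each population. With the mean log2 CPM of these 20 markers as a covariate in the genotype comparisons, 0 members were called in each population. Of the 18823 genes tested, 3, 2 and 1 were called with this covariate in CamK, Grik and SST.

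The difference of the genotype effect between populations was tested as an interaction. For CamK against Grik 0 members passed the edgeR threshold, beside 0.00531% of all genes, and 3 had an unadjusted p below 0.05 (6.5% of all genes). These were Elavl2 at 0.33 (SE 0.14, edgeR adjusted p 0.754), Celf5 at -0.28 and Celf6 at -0.25. That count was 0 with the replicate number as a block. It was also 0 without CamK cKO replicate 6, CamK WT replicate 4, Grik cKO replicate 2 or Grik WT replicate 3. For CamK against SST 0 passed, beside 0% of all genes, and 2 had an unadjusted p below 0.05 (7.85%), Celf5 at -0.37 and Celf6 at -0.26. This count was 1 with the replicate block and 1 to 4 with single libraries left out. For Grik against SST 0 passed, beside 0.0106% of all genes, and 0 had an unadjusted p below 0.05 (3.86%).

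The levels of the 4 members that varied most among WT groups were matched to other genes by Pearson's r of log2 CPM over all 23 libraries, among 12965 genes with a mean of at least 1 CPM. The libraries of a population share a cell type, so they are not independent points and r is given with no p. The gene most like Elavl2 was Neto1, an auxiliary subunit of NMDA and kainate receptors (r = 0.990), at 79.0, 228 and 296 CPM in CamK, Grik and SST WT. Daam1 and Abtb2 came next (r = 0.979 and 0.978). For Celf5 it was Ddn, which encodes the postsynaptic protein dendrin (r = 0.989), at 1373, 722 and 246 CPM, followed by Rgs14 and Gm2824 (r = 0.985 and 0.985). For Celf3 it was Actl6b, a subunit of the neuronal BAF chromatin remodelling complex (r = 0.986), then Ppp1r1a and Vxn (r = 0.980 and 0.980). For Celf6 it was Limk1, a kinase of the actin regulator cofilin (r = 0.988), at 33.8, 31.6 and 151 CPM, then Anks1 and Fam131c (r = 0.988 and 0.987).

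Other regulators that act on AU-rich or U-rich RNA stood beside the ELAV-like genes. Of 10 listed, 6 passed for CamK against Grik in WT (2 higher, 4 lower), 7 for CamK against SST (4 and 3) and 4 for Grik against SST (3 and 1). Of all genes tested, 42, 60.1 and 57.3% passed in these comparisons. The difference of the list from these shares was not tested. In cKO 6, 7 and 6 passed, beside 35.7, 56.4 and 57.9% of all genes. The mRNA-destabilising Zfp36l1 was lower in CamK than in Grik (log2 fold change -2.18, SE 0.33, adjusted p 7.45e-06, edgeR), but at 0.478 and 2.18 CPM it was scarce in both. Ybx1, an mRNA packaging protein, was higher in CamK at 105 CPM against 71.2 in Grik and 59.6 in SST (edgeR adjusted p 5.20e-07 and 3.31e-10). Between genotypes 0 of these 10 genes passed in any population, beside 0.0106% of all genes in each. The unadjusted p was below 0.05 for 1 in each, beside 7.05, 4.88 and 5.85% of all genes in CamK, Grik and SST.

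Of 15 tested splicing regulators from other families, 9 passed for CamK against Grik in WT (6 higher, 3 lower), 12 for CamK against SST (6 and 6) and 12 for Grik against SST (5 and 7), beside 42, 60.1 and 57.3% of all genes. In cKO 9, 7 and 12 passed, beside 35.7, 56.4 and 57.9%. The difference of the list from these shares was not tested. Rbfox3, the NeuN antigen, was 479 CPM in CamK, 381 in Grik and 137 in SST (CamK against SST 1.81, SE 0.08, edgeR adjusted p 5.88e-16). Nova1, a splicing regulator that is also described as an Elavl target, was 54.2, 25.5 and 68.1 CPM, lowest in Grik (CamK against Grik 1.09, SE 0.09, edgeR adjusted p 7.94e-10). Between genotypes 2 of the 15 rose in CamK and in Grik, none fell there, and 0 were called in SST, beside 0.0106% of all genes in each. Those that rose were Khdrbs2, a paralogue of the targeted gene, which went from 14.0 to 40.2 CPM in CamK and from 4.69 to 21.1 in Grik (edgeR adjusted p 3.02e-07 and 1.11e-10), and Khdrbs1, at 0.59 and 0.56 (edgeR adjusted p 0.0111 and 0.00914). Khdrbs2 was called in all 15 alternatives in CamK and all 16 in Grik. Khdrbs1 was called in 11 of each. Its call in CamK was lost with CamK libraries alone (adjusted p 0.102) and without cKO replicate 4 or 6 or WT replicate 5 (0.0569 to 0.109). In Grik it was lost without cKO replicate 1, 3 or 4 or WT replicate 4 or 5 (0.0711 to 0.195). In SST the log2 differences were 0.58 for Khdrbs2 and 0.10 for Khdrbs1 (edgeR adjusted p 0.300 and 0.874). Khdrbs2 was called in SST in 3 of 16 alternatives, with the replicate block (0.70, adjusted p 0.0255), by DESeq2 (0.58, 0.0185) and without SST cKO replicate 7 (0.70, 0.0141). The effect on Khdrbs2 was larger in Grik than in SST by 1.59 (SE 0.17, edgeR adjusted p 4.39e-05 for the interaction).

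Of 16 tested regulators of mRNA decay and translation, 6 passed for CamK against Grik in WT (3 higher, 3 lower), 14 for CamK against SST (9 and 5) and 12 for Grik against SST (8 and 4). The shares were 37.5, 87.5 and 75% of the list beside 42, 60.1 and 57.3% of all genes. The difference of the list from these shares was not tested. In cKO 4, 15 and 13 passed, beside 35.7, 56.4 and 57.9%. Msi2, an RNA-binding translational regulator, was 23.7 CPM in CamK and 22.8 in Grik against 113 in SST (edgeR adjusted p 3.06e-16 and 1.51e-16). Cpeb1, which binds the cytoplasmic polyadenylation element, was 55.1, 109.8 and 36.4 CPM in CamK, Grik and SST, highest in Grik (edgeR adjusted p 1.79e-12 against CamK). Between genotypes 0 of the 16 passed in each population, beside 0.0106% of all genes, with 0, 0 and 1 at an unadjusted p below 0.05, beside 7.05, 4.88 and 5.85%.

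The 15 genes described as bound or regulated by CELF or ELAV-like proteins included Nova1 and Msi1, which are on other lists too, and the excitatory marker Camk2a. Of them 12 passed for CamK against Grik in WT (5 higher, 7 lower), 14 for CamK against SST (8 and 6) and 13 for Grik against SST (7 and 6), beside 42, 60.1 and 57.3% of all genes. In cKO 11, 13 and 13 passed, beside 35.7, 56.4 and 57.9%. Nrn1, which encodes the neurite growth factor neuritin, was 267 CPM in CamK, 437 in Grik and 18.7 in SST (edgeR adjusted p 2.31e-12 for CamK against SST). Gap43 was 358, 178 and 296 CPM, lowest in Grik (edgeR adjusted p 4.28e-11 for CamK against Grik). Elavl4 was lowest in Grik too, at WT means of 127, 87.4 and 164 CPM in CamK, Grik and SST. Gap43 was higher in CamK than in SST (0.27, edgeR adjusted p 0.00201), where Elavl4 was lower. A link between these genes was not tested. Satb1, a chromatin organiser, was 106, 86.3 and 364 CPM (edgeR adjusted p 5.95e-16 for CamK against SST). Between genotypes 0 of the 15 passed in any population, beside 0.0106% of all genes in each. The unadjusted p was below 0.05 for 3, 0 and 2 in CamK, Grik and SST, beside 7.05, 4.88 and 5.85% of all genes. Splicing, binding and protein levels were not analysed here.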

How the data were processed

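The values are read counts per Ensembl gene in 1 table of 23 columns. The authors deposited whole-number counts whose 4 summary rows have the form of STAR's gene counting, per the file headers, and the submitters' processing notes name STAR, Trimmomatic and GRCm38 without versions. The strand setting and annotation are not given in the sources used here. Columns were matched to samples by name and groups come from the titles. The 4 summary rows (12.4 to 18.4% of reads) were left out. Gene reads were 87612006 to 112993538 per library, and the common biological coefficient of variation was 16.3%, against which counting error is small. Each of the 33 replicate pairs differed beyond counting noise (chi-square per degree of freedom 8.79 to 215).

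Of 45706 gene IDs, 45143 matched a symbol in GENCODE M21 (GRCm38). In R 4.3.3, edgeR 4.0.16 kept 18823 genes (filterByExpr), scaled by TMM and fitted 6 groups in 1 robust quasi-likelihood model with 17 residual degrees of freedom. Benjamini-Hochberg adjustment ran over all genes of a comparison (threshold 0.05), and SE is the log2 fold change divided by the square root of F. The functions were tested on simulated data. CPM are counts per 1000000 reads after TMM scaling, and log2 CPM used a prior count of 2. The alternatives comprised scaling by relative log expression, leaving out the filter, a stricter one (3 or more libraries at 1 CPM or above), DESeq2 1.42.0, limma 3.58.1 voom with sample weights, the compared populations alone, a block for replicate numbers, the mean log2 CPM of the non-neuronal markers as covariate (genotype comparisons only), the longest transcript as length, and leaving out each library.

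All 10 members are named. Of other genes, the text names the 3 most correlated with each of the 4 members of widest WT range, Khdrbs3, markers, genes whose exons overlap a member's, and members of 4 lists past the threshold, with at most 6 of a list for each comparison. The members and lists were chosen with earlier results of these data known, so the list counts are no independent support. Promoters come from RefSeq (GRCm38.p6) and coding sequences from GENCODE M21.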

Additional observations from a re-analysis of the deposited data

How the results depend on the processing

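The non-neuronal covariate was run for the genotype comparisons only. Under the alternatives run for each comparison, the number of members called did not change for CamK against SST in WT (8) and for Grik against SST in both genotypes (9), and it stayed 0 in the 3 genotype comparisons and the 3 interactions. For CamK against Grik it went from 6 to between 6 and 8 in WT and from 7 to between 6 and 8 in cKO. In WT, Celf1 and Elavl1 were added under the filter of CPM of at least 1, limma-voom and the compared populations alone. Of all genes tested in WT, 7912 of 18823 passed in the main fit. Under these alternatives 7259 of 13918, 8284 of 18823 and 8226 of 17781 passed, in that order. In cKO 6716 of 18823 passed in the main fit, 5793 with the replicate block (6 members) and 8354 by limma-voom (8 members). For CamK against SST in cKO the number of members called was 7 to 8 with single libraries left out. It was 8 without SST cKO replicate 7, where 10269 of 18688 genes passed. Without 1 library the number of members was 6 to 7 for CamK against Grik in WT. There, leaving out CamK WT replicate 5 or Grik WT replicate 3 took out Celf2 and added Celf1 and Elavl1. Without these libraries 7134 of 18761 and 7272 of 18797 genes passed. By limma-voom Celf2 was called for CamK against Grik in cKO (adjusted p 0.0355). Genes called between genotypes numbered 2, 2 and 2 by edgeR in CamK, Grik and SST, 16, 14 and 11 by DESeq2, and 6, 37 and 0 by limma-voom; the cause was not tested. The longest transcript as length moved the WT shares of Celf1 and Celf2 by over 1.5 times in each population, and that of Celf6 in Grik and SST. Samples with the same replicate number did not deviate together (1 to 3 shared numbers a comparison, correlations -0.0999 to 0.129). With the replicate number as a block, Celf1 for CamK against Grik in cKO lost its call (adjusted p 0.0800).

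Log2 differences near 0 changed sign in 38 cases, of which 0 were called; the largest was 0.158 in size before the change. Under relative log expression scaling they were cKO-WT CamK Elavl1 0.00668. With no filter they were cKO-WT CamK Elavl1 4.73e-04, CamK-SST cKO Elavl3 0.00773. With the stricter filter they were cKO-WT CamK Elavl1 0.00572, interaction Grik-SST Celf4 0.00822. By DESeq2 they were cKO-WT CamK Elavl1 0.00668. By limma-voom they were cKO-WT Grik Celf3 -0.00887, Celf5 -0.0301, Elavl3 -0.0386, cKO-WT SST Celf4 0.0163 and Elavl3 0.00480, CamK-SST WT Celf4 0.0109, Grik-SST WT Elavl3 0.00259, CamK-SST cKO Elavl3 6.14e-04, interaction Grik-SST Elavl3 -0.0434. With the replicate block they were cKO-WT CamK Elavl3 0.111, cKO-WT Grik Celf1 0.00351, Celf3 -0.0502, Celf5 -0.0284, Celf6 -0.0297, Elavl3 -0.153, cKO-WT SST Celf4 0.0411 and Elavl3 0.0826, CamK-Grik WT Elavl3 -0.00957, Grik-SST WT Elavl3 0.120, CamK-SST cKO Elavl3 0.139, interaction CamK-Grik Celf3 0.0126, Celf4 0.0280, Elavl3 0.264, interaction CamK-SST Elavl3 0.0286, interaction Grik-SST Elavl3 -0.236. With the compared populations alone they were CamK-SST cKO Elavl3 0.0222, interaction Grik-SST Celf4 0.0108. With the non-neuronal covariate they were cKO-WT CamK Elavl1 0.0601, cKO-WT Grik Celf4 1.95e-04 and Elavl4 0.00414, cKO-WT SST Celf4 0.0122 and Elavl3 0.0116.

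Leaving out each library in turn gave these ranges for 37 log2 differences that crossed 0. For cKO-WT CamK they were Celf2 -0.0249 to 0.0801, Elavl1 -0.0282 to 0.0352, Elavl3 -0.127 to 0.0161, Elavl4 -0.00836 to 0.0924. For CamK-Grik cKO they were Elavl3 -0.0557 to 0.0881. For CamK-SST cKO they were Elavl3 -0.0753 to 0.0685. For interaction CamK-Grik they were Celf4 -0.0647 to 0.0142, Elavl3 -0.141 to 0.0388. For interaction CamK-SST they were Celf4 -0.0896 to 0.0208, Elavl1 -0.0210 to 0.102, Elavl3 -0.137 to 0.0480. For CamK-Grik WT they were Elavl3 -0.0185 to 0.161. For CamK-SST WT they were Celf4 -0.0509 to 0.0234, Elavl3 -0.0534 to 0.132. For cKO-WT Grik they were Celf1 -0.0623 to 0.0126, Celf2 -0.127 to 0.00164, Celf3 -0.0519 to 0.0945, Celf4 -0.0539 to 0.0169, Celf5 -0.0576 to 0.0714, Celf6 -0.0185 to 0.0437, Elavl3 -0.0955 to 0.0837, Elavl4 -0.0662 to 0.0435. For Grik-SST cKO they were Elavl3 -0.0658 to 0.0406. For interaction Grik-SST they were Celf1 -0.0399 to 0.0626, Celf2 -0.0222 to 0.111, Celf3 -0.120 to 0.0385, Celf4 -0.0530 to 0.0424, Celf6 -0.0801 to 0.0371, Elavl2 -0.166 to 0.00302, Elavl3 -0.0893 to 0.118. For Grik-SST WT they were Elavl3 -0.140 to 0.0834. For cKO-WT SST they were Celf1 -0.0959 to 0.0120, Celf3 -0.00215 to 0.139, Celf4 -0.0568 to 0.0452, Celf6 -0.0218 to 0.0997, Elavl1 -0.103 to 0.0200, Elavl3 -0.104 to 0.0813.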
